A study of Mus musculus with 8 samples.

Results

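Oxidative phosphorylation genes encode the respiratory chain and ATP synthase of the inner mitochondrial membrane. Their messenger RNA was measured here in macrophages grown from mouse bone marrow. The genes were chosen by symbol: the Ndufa, Ndufb, Ndufc, Ndufs and Ndufv families of complex I, the Sdh genes of complex II, the Uqcr genes and Cyc1 of complex III, cytochrome c (Cycs), the Cox4 to Cox8 genes of complex IV, the Atp5 genes of ATP synthase, and the mitochondrially encoded subunits. In the table of 55376 genes 121 rows matched by name, and the 101 with 10 or more counts in at least 2 of the 8 libraries were kept. Of these, 92 are nuclear genes and 9 are encoded by mitochondrial DNA, and all 101 were among the 13721 genes tested. The nuclear genes comprised 37 of complex I, 8 complex I assembly factors of the Ndufaf family that the name rule also took, 4 of complex II, 9 of complex III, 1 cytochrome c, 15 of complex IV and 18 of ATP synthase. Symbols ending in -ps, a suffix of pseudogenes, were kept as well: Atp5l2-ps in ATP synthase with 157 counts in all and Ndufb1-ps in complex I with 10768. Of the 50-base windows of Atp5l2-ps, 73.4% also occur in transcripts of other genes. The mitochondrial genes comprised 6 of complex I, 1 of complex III and 2 of complex IV. Closest to the count limit, mt-Co3 was kept with 4 to 15 counts per library, and Cox6b2 was not kept with 1 to 11 counts, of which only HET IL-6 number 2 reached 10.

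The marrow came from male mice of 13 weeks, 3 for each genotype, which carried the label DNMT3A-HET (HET) or were wild type (WT). All cultures received M-CSF at 50 ng/mL, the growth factor that turns marrow cells into macrophages. The HET IL-6 and WT IL-6 groups were given IL-6, an inflammatory cytokine, at 10 ng/mL on day 6 for 2 days, the HET control and WT control groups were not, and RNA of all 4 groups was taken on day 8. Each group held 2 libraries, numbered 1 and 2. The labels describe neither the altered Dnmt3a allele nor which mice gave which library, so p-values reflect the spread among the libraries at hand, part of which may be technical.

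Complexes I to IV pass electrons from NADH and succinate to oxygen and, except complex II, pump protons, whose return through ATP synthase drives ATP production. Mammalian mitochondrial DNA encodes a small set of core subunits of complexes I, III, IV and ATP synthase, all transcribed by the polymerase POLRMT, while the nucleus encodes the other subunits and all of complex II. In macrophages the balance between this pathway and glycolysis is known to shift with the activating signal.

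Total counts ran from 18926641 to 50137897 per library. The 8 macrophage markers summed to 11908 to 12202 CPM (counts scaled to library size with TMM factors) in HET IL-6, 12792 to 12945 in HET control, 13171 to 14141 in WT IL-6 and 11898 to 12498 in WT control, and 3 of the 4 T and NK cell markers were at 0 in every library. Marker sums of other cell types also differed between groups: the endothelial list was at 55.1 to 55.9 CPM in HET IL-6 against 27.6 to 30.1 in HET control and at 52.2 to 56.0 in WT IL-6 against 32.1 to 34.7 in WT control, and the stromal list was at 2.84 to 5.89 CPM in HET IL-6, 1.21 to 2.58 in HET control, 4.82 to 11.1 in WT IL-6 and 3.03 to 8.87 in WT control. The monocyte list was at 35.8 to 43.8 CPM in HET IL-6 against 53.8 to 70.2 in WT IL-6, and at 23.8 to 33.4 in HET control against 35.7 to 42.5 in WT control. The neutrophil list was at 1.17 to 1.33 CPM in HET IL-6 against 2.20 to 2.27 in WT IL-6, and at 2.26 to 2.32 in HET control against 0.927 to 1.115 in WT control. The macrophage, monocyte and neutrophil lists were apart between HET and WT under both treatments. The macrophage list was lower in HET than in WT after IL-6 and higher in HET in control. The endothelial and stromal lists overlapped between HET and WT after IL-6, and in control they were apart and lower in HET. The part of these lists in the results below was not tested. Dnmt3a, the gene of the genotype label, was at 140.1 and 213 CPM in HET IL-6 against 175 and 183 CPM in WT IL-6, and at 166 and 248 CPM in HET control against 275 and 244 CPM in WT control. Its groups overlapped after IL-6 and in control, its edgeR adjusted p was 0.972 after IL-6 and 0.506 in control, and groups are therefore called by their labels only. The dependence of counts on the GC content of transcripts differed between libraries. The Spearman rho between a gene's deviation from its mean and its GC content was 0.35 and 0.39 in HET IL-6 and 0.28 and 0.32 in HET control. It was -0.55 and -0.25 in WT IL-6 and 0.10 and -0.42 in WT control. Calls between HET and WT are therefore given also with offsets for exon length and transcript GC content. Every HET value of rho was above every WT value, so the offsets may also remove part of a HET to WT difference, which was not tested.

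Of the 13 mitochondrially encoded subunit genes, 4 were not kept and 2 more had few counts. The cytochrome c oxidase subunit gene mt-Co2 (mitochondrial genome 7013 to 7696, mm10) had 24 counts over all 8 libraries, the ATP synthase genes mt-Atp6 and mt-Atp8 had 11 and 2, and the complex I gene mt-Nd4l had 8. The neighbouring mt-Co3 and mt-Nd3 had 67 and 381 counts, against 1390522 for mt-Co1. The genes with few counts lie next to each other on the mitochondrial genome, and a run of chromosome 1 holds near-identical nuclear copies of mt-Co2, mt-Atp6, mt-Co3 and mt-Nd3. The sequence below is shown because it is shared: it is bases of mt-Co2 (GRCm38, + strand) that recur with 0 mismatches over 80 bases in Gm28661 on chromosome 1, with no base in capitals because none differs.
mt-Co2, chrM:7113-7192: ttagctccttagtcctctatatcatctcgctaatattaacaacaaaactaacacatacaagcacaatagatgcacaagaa
Gm28661, chr1:24615386-24615465, - strand: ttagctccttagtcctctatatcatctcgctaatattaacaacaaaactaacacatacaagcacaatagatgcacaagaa
Counted in windows of 50 bases against the transcripts of other genes, 100% of mt-Co2, 99.9% of mt-Co3, 99.5% of mt-Atp6, 98.8% of mt-Nd4l and 98.0% of mt-Nd3 were shared. The share was 62.2% for mt-Nd4, 51.1% for mt-Co1, 8.19% for mt-Nd2 and 7.61% for mt-Nd5, and 0% for mt-Nd1, mt-Nd6, mt-Cytb and mt-Atp8. The 6 listed copies on chromosome 1 had 0 to 19 counts per library, so the table holds few counts in either place. How the counting treated reads that match several places is not given in the sources used here, and its part in these low counts was not tested. mt-Atp8, which lies between mt-Co2 and mt-Atp6, had no window in the transcripts of other genes, but sequence outside annotated transcripts was not searched, so its 0% does not show that a nuclear copy is absent. Levels of the 6 genes are uncertain, and mt-Co1 and mt-Nd4 may be counted in part only.

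**Figure D1:**
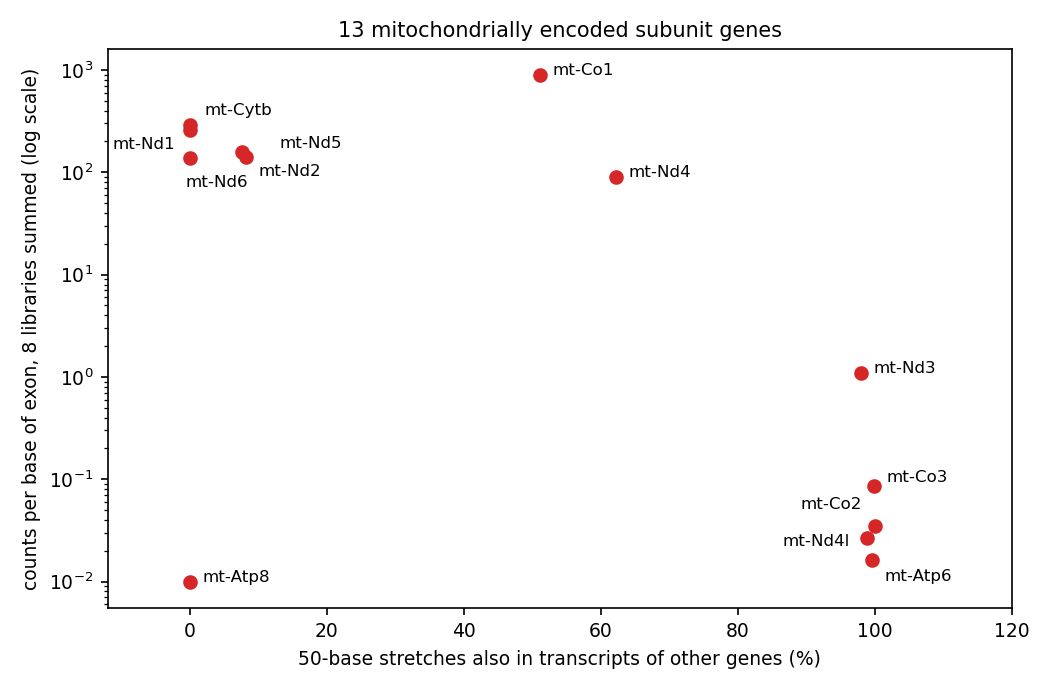
Counts per base of exon summed over the 8 libraries (log scale) for the 13 mitochondrially encoded subunit genes, against the percentage of 50-base stretches that also occur in transcripts of other genes. The 5 genes with 98.0% to 100% shared stretches lie at the lower right, mt-Atp8 lies low with 0% shared, and mt-Co1 and mt-Nd4 lie high at 51.1% and 62.2%.

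The 9 mitochondrial genes together took 1.07% and 1.13% of all counts in HET IL-6, 1.22% and 1.14% in HET control, 1.48% and 1.29% in WT IL-6 and 1.14% and 1.50% in WT control. The 92 nuclear genes took 0.657% and 0.671% in HET IL-6, 0.696% and 0.686% in HET control, 0.639% and 0.646% in WT IL-6 and 0.664% and 0.631% in WT control. The mitochondrial share was lower in both HET libraries than in both WT libraries after IL-6, while in control the HET values lay between the WT values. The log2 ratio of mitochondrial to nuclear counts averaged 0.73 ± 0.04 in HET IL-6 against 1.11 ± 0.15 in WT IL-6, and 0.77 ± 0.06 in HET control against 1.01 ± 0.34 in WT control (SD, n = 2 each). The 3 libraries with a negative GC correlation, WT IL-6 numbers 1 and 2 and WT control number 2, had the 3 highest mitochondrial shares, and the part of GC content in this difference was not tested on the shares. In these bulk samples fewer cells of a type and less RNA per cell cannot be told apart.

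**Figure D2:**
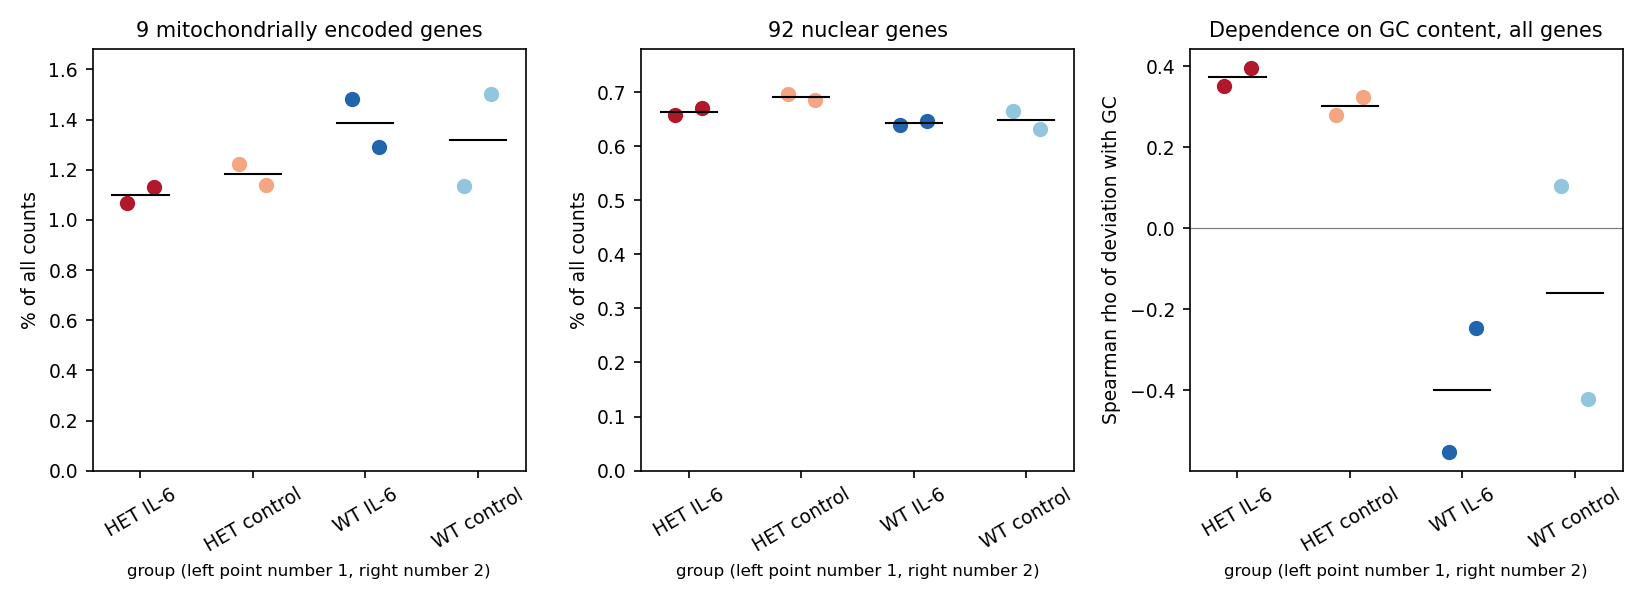
Share of all counts on the 9 mitochondrially encoded genes (left) and the 92 nuclear genes (middle), and Spearman rho between each gene's deviation and its GC content over all tested genes (right), for each library (points) with the group mean (bars). The mitochondrial share is highest in WT IL-6 number 1 and WT control number 2, at 1.48% and 1.50%, where rho is lowest.

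The comparison of HET with WT after IL-6 gave the highest number of called genes. Of the 101, 25 were higher and 11 lower in HET than in WT (35.6%), where 22.0% of all tested genes were called, 13.2% higher and 8.80% lower. The nuclear genes gave 25 higher and 5 lower calls with a median log2 fold change of 0.06, and the mitochondrial genes gave 0 higher and 6 lower calls with a median of -0.42, beside -0.01 over all tested genes. With offsets for length and GC content 13 were higher and 5 lower, where 1591 of all genes were called, and 13 of the 36 calls remained. The median was then 0.03 for nuclear and -0.13 for mitochondrial genes. None of the 11 lower calls was left when HET IL-6 number 1, HET IL-6 number 2 or WT IL-6 number 1 was left out. The calls became fewer in these 3 settings among the 101 genes and over all tested genes. Without WT IL-6 number 2 they became more in both. Each of these settings leaves 1 library in a group.

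The mitochondrial calls were mt-Nd1, mt-Nd2, mt-Nd4, mt-Nd5 and mt-Nd6, which encode proton-pumping subunits of complex I, and mt-Cytb, the cytochrome b of complex III. mt-Nd5 (11742 to 13565 of the mitochondrial genome) was at 1117 and 1193 CPM in HET IL-6 against 1780 and 1518 CPM in WT IL-6. HET libraries were below both WT libraries, with a log2 fold change of -0.51 ± 0.12 (edgeR adjusted p = 0.0106). mt-Cytb was at 1337 and 1441 CPM in HET IL-6 against 2044 and 1670 CPM in WT IL-6 (-0.42 ± 0.13, edgeR adjusted p = 0.0297). mt-Nd6, the only one of them transcribed from the other strand, stood at 291 and 289 CPM in HET IL-6 against 452 and 372 CPM in WT IL-6 (-0.51 ± 0.14, edgeR adjusted p = 0.0232). The strand setting of the counting is not given, so the counts of mt-Nd6 may include RNA of the opposite strand, which was not tested. The other 3 calls lay at -0.34 (mt-Nd1), -0.39 (mt-Nd2) and -0.37 (mt-Nd4). mt-Co1, the most abundant gene of the set at 4305 CPM per kilobase of exon, was at 5896 and 6302 CPM in HET IL-6 against 7783 and 6919 CPM in WT IL-6 and did not pass the test (-0.27 ± 0.11, edgeR adjusted p = 0.0996). The sparsely counted mt-Nd3 and mt-Co3 were also lower in both HET libraries without a call, at -0.84 ± 0.44 and -1.27 ± 0.59. With the offsets mt-Co1 was at -0.04, mt-Nd3 at -0.47 and mt-Co3 at -0.996, none of them called. In the same fit mt-Nd5 kept its call at -0.24 (edgeR adjusted p = 0.0272), and the other 5 calls were lost, with values from -0.16 to -0.05. None of the 6 was called when HET IL-6 number 1, HET IL-6 number 2 or WT IL-6 number 1 was left out, and for mt-Nd5 the edgeR adjusted p was 0.139 without WT IL-6 number 1, the highest of the 3.

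**Figure D3:**
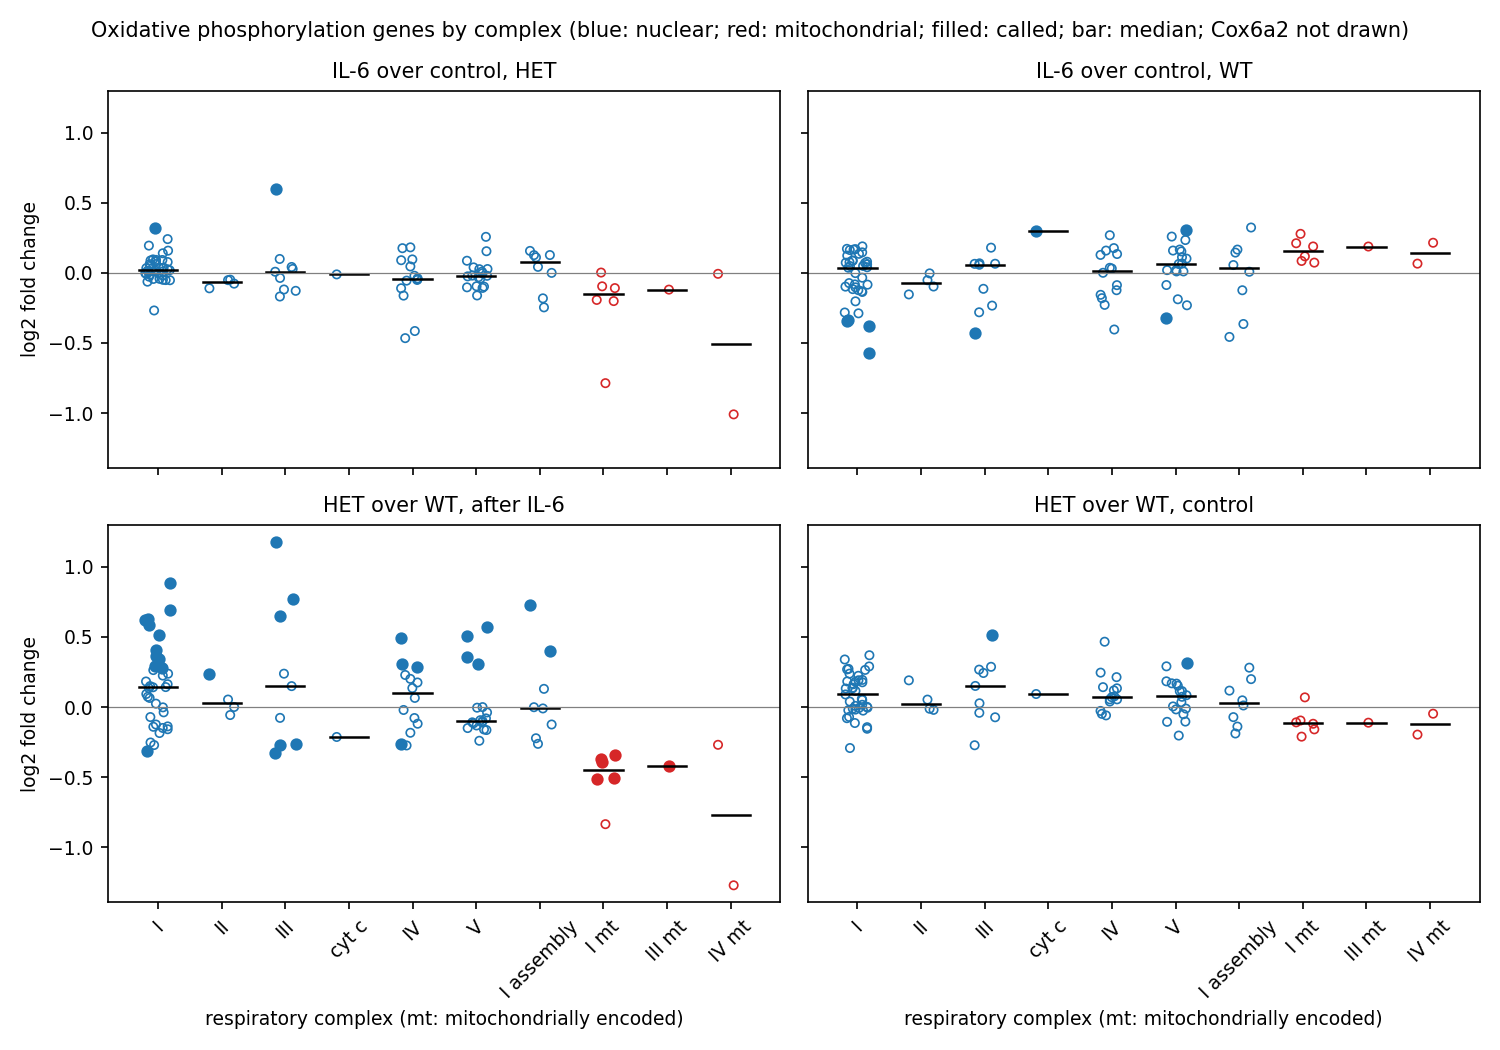
Log2 fold change of each gene (points; filled where called at an edgeR adjusted p under 0.05) and the median (bars) by respiratory complex in 4 comparisons, for nuclear (blue) and mitochondrially encoded (red) genes; V is ATP synthase and Cox6a2 is left out of points and medians. After IL-6 the called mitochondrial genes lie at -0.51 to -0.34 in HET over WT, and in control 2 genes are filled, Uqcr11 at 0.51 and Atp5d at 0.31.

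Among nuclear genes of complex I, which takes electrons from NADH, 11 of 37 were higher and 1 lower in HET after IL-6. This is 32.4%, beside 22.0% of all tested genes. Ndufs7 (chromosome 10, 80249121 to 80256794, mm10), an iron-sulfur subunit near the ubiquinone site, was at 27.9 and 31.6 CPM in HET IL-6 against 17.2 and 15.1 CPM in WT IL-6. The groups were apart, and it was higher by 0.88 ± 0.11 on the log2 scale (edgeR adjusted p = 2.42e-04). The accessory subunit gene Ndufb7 was at 41.0 and 47.2 CPM in HET IL-6 against 28.5 and 26.1 CPM in WT IL-6 (0.69 ± 0.10, edgeR adjusted p = 5.35e-04). Ndufa2 and Ndufa11, also accessory subunits, rose by 0.63 ± 0.10 and 0.62 ± 0.10, and Ndufa2 is uncertain because 11.5% of its exon bases lie in other genes too. Ndufs1, the large iron-sulfur subunit of the NADH-oxidizing arm, went the other way, with 79.7 and 83.4 CPM in HET IL-6 against 102 and 101 CPM in WT IL-6 (-0.31 ± 0.08, edgeR adjusted p = 0.0119). Its transcript has 45.1% GC and that of Ndufs7 59.6%. With the offsets Ndufs7 was at 0.47, Ndufb7 at 0.52 and Ndufa2 at 0.59, all still called, while Ndufa11 (0.28) and Ndufs1 (-0.17) were not. Ndufv1 and Ndufs4, core and accessory subunits, were at 0.28 ± 0.10 and -0.16 ± 0.10 without a call, and at -0.035 and -0.0015 with the offsets. The assembly factor genes gave 2 higher calls of 8 (25%). The larger was Ndufaf8, at 5.02 and 5.12 CPM in HET IL-6 against 3.06 and 3.06 CPM in WT IL-6 (0.73 ± 0.17, edgeR adjusted p = 0.00926). With the offsets Ndufaf8 was at 0.50 (edgeR adjusted p = 0.0653), and none of the 8 was called.

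Complex II gave 1 call of 4 genes, or 25% beside 22.0% of all tested genes. Sdha, the flavoprotein that oxidizes succinate, was at 272 and 272 CPM in HET IL-6 against 275 and 292 CPM in WT IL-6 (-0.06 ± 0.07), and Sdhc and Sdhd, its membrane anchors, were at 0.05 ± 0.10 and 0.00 ± 0.08. Sdhb, the iron-sulfur subunit, was at 99.8 and 101 CPM in HET IL-6 against 84.9 and 85.6 CPM in WT IL-6. It was called at 0.23 ± 0.08 (edgeR adjusted p = 0.0496) and, with the offsets, was at 0.07 (edgeR adjusted p = 0.481).

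Complex III, which passes electrons from ubiquinol to cytochrome c, had 6 of 9 nuclear genes called, 3 higher and 3 lower. This is 66.7%, beside 22.0% of all tested genes. With the offsets 3 were higher and 1 lower, where 1591 of all tested genes were called. The highest were 3 small subunits, Uqcrq, Uqcr11 and Uqcr10. Uqcr11 (chromosome 10, 80402997 to 80406830) was at 35.5 and 38.4 CPM in HET IL-6 against 23.0 and 20.2 CPM in WT IL-6 (0.77 ± 0.10, edgeR adjusted p = 2.24e-04). Uqcr10 was at 38.2 and 43.4 CPM in HET IL-6 against 26.8 and 25.4 CPM in WT IL-6 (0.65 ± 0.11, edgeR adjusted p = 0.00106). Both kept their call with the offsets, at 0.39 and 0.51. The lower genes were Uqcrb, Uqcrh and the core gene Uqcrc2 at -0.33, -0.27 and -0.27, all without a call under the offsets, and Uqcrc2 shares 19.7% of its exon bases with other genes, so its value is uncertain. The core gene Uqcrc1 and the cytochrome c1 gene Cyc1 were at 0.24 ± 0.09 and 0.15 ± 0.09 and did not pass, but with the offsets Cyc1 was called lower at -0.31 (edgeR adjusted p = 0.0112).

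Complex IV, which reduces oxygen, gave 4 higher calls and 1 lower among 15 nuclear genes, or 33.3% beside 22.0% of all tested genes. With the offsets 2 were higher and 0 lower, where 1591 of all tested genes were called. The highest fold change of the comparison was that of Cox6a2, at 3.19 and 2.47 CPM in HET IL-6 against 0.496 and 0.536 CPM in WT IL-6 (2.43 ± 0.36, edgeR adjusted p = 5.69e-04), and it was at 2.34 with the offsets. The ubiquitous isoform gene Cox6a1 was at 107 and 114 CPM in HET IL-6 against 80.7 and 76.5 CPM in WT IL-6 (0.49 ± 0.08, edgeR adjusted p = 8.78e-04), yet with 62.7% GC in its transcript it was at 0.03 with the offsets. Cox4i1, the main subunit 4 isoform, was at 233 and 244 CPM in HET IL-6 against 184 and 207 CPM in WT IL-6 (0.29 ± 0.09, edgeR adjusted p = 0.0330), and with the offsets it was at -0.06. Cox7a2l, a factor of respiratory supercomplexes, was at 153 and 155 CPM in HET IL-6 against 115 and 133 CPM in WT IL-6 (0.31 ± 0.09, edgeR adjusted p = 0.0265) and kept its call with the offsets at 0.32. Ndufa4, a subunit of complex IV in spite of its name, was lower at -0.27 ± 0.08 (edgeR adjusted p = 0.0326) and was at -0.04 with the offsets.

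ATP synthase gave 4 higher calls of 18 genes and 0 lower, or 22.2% beside 22.0% of all tested genes. Of its 18 fold changes 14 were negative, with a median of -0.10, and the median was -0.01 with the offsets. Atp5d (chromosome 10, 80138632 to 80145818), the delta subunit of the catalytic part, was at 82.9 and 87.2 CPM in HET IL-6 against 56.7 and 57.9 CPM in WT IL-6 (0.57 ± 0.08, edgeR adjusted p = 4.26e-04), and it was at 0.17 with the offsets (edgeR adjusted p = 0.0825). The catalytic core genes Atp5b and Atp5a1 were at -0.09 ± 0.08 and 0.00 ± 0.08 and were called lower with the offsets, at -0.18 and -0.23. With the offsets 2 genes of ATP synthase were higher and 3 lower.

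The relation of the fold change to base composition was followed across genes, which are not independent replicates. After IL-6 the Spearman rho between each gene's HET to WT log2 fold change and its transcript GC content was 0.63 over the 92 nuclear genes and 0.58 over 13628 genes with a known transcript. With the offsets it was -0.01 and 0.03, which is no test, because the offsets were fitted to remove the trend with GC content over the tested genes. Without the offsets, rho over nuclear genes and over all genes with a known transcript was 0.54 and 0.42 for HET over WT in control. It was -0.51 and -0.22 for IL-6 in WT, 0.07 and 0.07 for IL-6 in HET, and 0.45 and 0.25 for the difference. For IL-6 in WT the nuclear genes called higher had a median GC content of 38.9% and those called lower 53.6%. In HET over WT after IL-6 the nuclear genes called higher had a median of 53.7%. Those called lower had 44.4% and those not called 48.9%, and the mitochondrial genes had 37.1%. The first 90 coding bases (GENCODE M21 on GRCm38) of Uqcrq, which kept its fold change with the offsets, of a GC-rich gene and of a mitochondrial gene are shown to make this visible, with G and C in capitals.
Uqcrq, chromosome 11, - strand, from 53430689: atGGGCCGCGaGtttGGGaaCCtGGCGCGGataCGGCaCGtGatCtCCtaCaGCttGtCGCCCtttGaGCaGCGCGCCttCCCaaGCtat
Ndufs7, chromosome 10, + strand, from 80249476: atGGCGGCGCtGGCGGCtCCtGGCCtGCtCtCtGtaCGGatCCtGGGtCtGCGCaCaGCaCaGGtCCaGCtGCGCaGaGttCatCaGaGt
mt-Nd5, mitochondrial genome, + strand, from 11742: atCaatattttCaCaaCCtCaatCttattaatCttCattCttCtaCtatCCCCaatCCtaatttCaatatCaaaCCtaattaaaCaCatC
G and C make up 61.1% of the stretch of Uqcrq, 64.4% of that of Ndufs7 and 27.8% of that of mt-Nd5. Over its longest transcript of 1521 bases, the one used for the offsets, Uqcrq has 50.2% GC, near the median of 50.0% of the nuclear genes. Its 246 coding bases have 57.7% GC. Which transcript the counted reads came from was not tested, so its offset is uncertain.

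**Figure D4:**
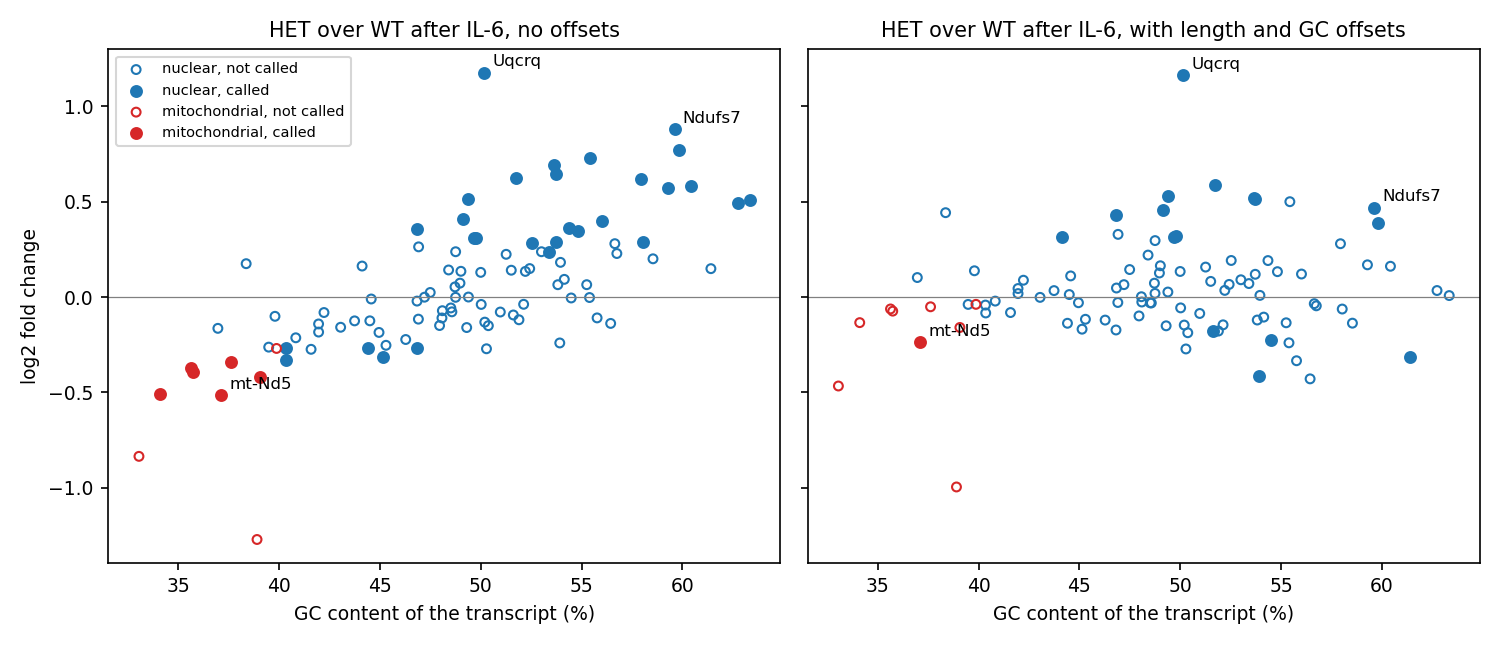
HET to WT log2 fold change after IL-6 against the GC content of the transcript (percent), without offsets (left) and with length and GC offsets (right), for nuclear (blue) and mitochondrial (red) genes, filled where called; Cox6a2 is not drawn. The slope on the left has a Spearman rho of 0.63 over the 92 nuclear genes. On the right, where the offsets were fitted to remove it, rho is -0.01 and Uqcrq is at 1.17.

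In control, 2 of the 101 genes were higher and 0 lower in HET, where 4.85% of all tested genes were called, 2.81% higher and 2.05% lower. Uqcr11 was at 37.3 and 35.4 CPM in HET control against 25.1 and 25.95 CPM in WT control (0.51 ± 0.10, edgeR adjusted p = 0.0111). Atp5d was at 84.2 and 82.9 CPM in HET control against 70.0 and 64.6 CPM in WT control (0.31 ± 0.08, edgeR adjusted p = 0.0404). With the offsets the edgeR adjusted p was 0.0585 for Uqcr11 and 0.177 for Atp5d, and without HET control number 1 it was 0.152 and 0.308. Neither of the 2 calls was left without HET control number 1 or without HET control number 2, and more genes were called without WT control number 1. Calls over all tested genes moved the same way. Cox6a2 was at 0.525 and 1.13 CPM in HET control against 2.07 and 1.72 CPM in WT control, apart but not called (-1.19 ± 0.34, edgeR adjusted p = 0.0640), and it was called with the offsets at -1.27 (edgeR adjusted p = 0.0448). The 9 mitochondrial genes lay between -0.21 and 0.07, and their groups overlapped.

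IL-6 gave few calls among these genes in either genotype, in a fit with 1 spread shared by all groups. Libraries of a group differed more in WT. The median chi-square of members was 3.60 in WT IL-6 and 6.13 in WT control, against 1.30 in HET IL-6 and 0.79 in HET control. In HET, 24 of the 101 were apart higher with IL-6 and 26 lower, beside 4499 and 4396 of all 13721. In WT it was 17 and 21, beside 3311 and 3902. In HET, 3 rose and 0 fell of 101, where 18.3% of all tested genes were called, 8.87% higher and 9.41% lower. These were Uqcrq, Cox6a2 and the complex I gene Ndufa6, which was at 26.5 and 29.4 CPM in HET IL-6 against 22.2 and 22.7 CPM in HET control (0.32 ± 0.09, edgeR adjusted p = 0.0269). In WT, 2 rose and 7 fell, where 18.3% of all tested genes were called, 7.91% higher and 10.4% lower. Cytochrome c, the mobile carrier between complexes III and IV, rose in WT: Cycs was at 74.9 and 74.2 CPM in WT IL-6 against 60.2 and 61.5 CPM in WT control (0.29 ± 0.08, edgeR adjusted p = 0.0231). In HET it was at -0.01 ± 0.08, and the difference between the genotypes did not pass (-0.31 ± 0.12, edgeR adjusted p = 0.133). Atp5f1, the stalk subunit b of ATP synthase, rose in WT by 0.31 ± 0.10 (edgeR adjusted p = 0.0380). The falls in WT were Cox6a2, Ndufs7 (-0.57 ± 0.12), Uqcrq, Ndufb7 (-0.38 ± 0.10), Ndufa2 (-0.34 ± 0.11), Ndufa13 (-0.34 ± 0.09) and the c subunit gene Atp5g2 (-0.32 ± 0.09). With the offsets Ndufa13 and Atp5g2 lost the call. In that fit 8 genes rose and 7 fell in WT, where 3163 of all tested genes were called. In HET 5 rose and 1 fell, where 3457 were called. Ndufa13 shares 29.98% of its exon bases with other genes, and its value is uncertain. No mitochondrial gene was called in either genotype without the offsets, with medians of -0.12 in HET and 0.19 in WT, and with them mt-Nd4 (0.25) and mt-Nd5 (0.19) were called higher in WT. The count in WT fell without either WT IL-6 library or WT control number 1 and rose without WT control number 2, as did the count over all tested genes. In HET both counts fell without either HET IL-6 library or HET control number 1. With the WT replicate numbers crossed between treatments, chosen after seeing the data, the counts were 14 in HET and 32 in WT. In that fit 4435 and 4443 of all genes were called, so the low count in WT depends on the setting.

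The IL-6 response differed between the genotypes for 3 of the 101 genes, which were more positive in HET, where 8.12% of all tested genes were called, 4.52% higher and 3.60% lower. With the offsets 3 genes were more positive in HET (Cox6a2, Uqcrq and Cox7a2l, the last at 0.38) and 4 more negative, namely mt-Nd5 at -0.33, Cyc1 at -0.44, Atp5a1 at -0.30 and Atp5b at -0.24. The same fit called 1710 of all tested genes, 758 more positive and 952 more negative. Uqcrq (chromosome 11, 53427922 to 53430831), a small subunit of complex III, was at 48.5 and 53.7 CPM in HET IL-6 against 32.5 and 35.2 CPM in HET control, and at 22.3 and 23.0 CPM in WT IL-6 against 28.6 and 32.5 CPM in WT control. It thus rose in HET (0.60 ± 0.09, edgeR adjusted p = 5.12e-04) and fell in WT (-0.43 ± 0.10, edgeR adjusted p = 0.00819), and the difference was 1.03 ± 0.14 (edgeR adjusted p = 6.81e-04). The HET IL-6 libraries were above all others and the WT IL-6 libraries below all others. With the offsets the difference was again 1.03, and HET over WT after IL-6 was 1.18 ± 0.10 without and 1.17 with them. These calls held without each library in turn, except the fall in WT, whose edgeR adjusted p was 0.0545 when WT IL-6 number 1 was left out. In control it did not pass (0.15 ± 0.10, edgeR adjusted p = 0.400).

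Cox6a2 (chromosome 7, 128205435 to 128206387) encodes the isoform of complex IV subunit 6A known from heart and skeletal muscle. It had 77 and 122 counts in HET IL-6, 12 and 27 in HET control, 12 and 10 in WT IL-6 and 52 and 39 in WT control. These are 3.19 and 2.47 CPM in HET IL-6 against 0.525 and 1.13 CPM in HET control, and 0.496 and 0.536 CPM in WT IL-6 against 2.07 and 1.72 CPM in WT control. Both treatments were apart within each genotype, in opposite directions. It rose with IL-6 in HET (1.74 ± 0.32, edgeR adjusted p = 0.00168) and fell in WT (-1.88 ± 0.38, edgeR adjusted p = 0.00317). The difference was 3.62 ± 0.50 (edgeR adjusted p = 7.99e-04) and 3.61 with the offsets, and each of these calls held without any single library. Its level is low beside its isoform partner: per kilobase of exon Cox6a2 averaged 2.23 CPM and Cox6a1 136 CPM. The integrin gene Itgad overlaps 10.3% of its exon bases and was at 0 to 0.241 CPM. Its coding start is shown because the gene carries the largest response difference of the set, with G and C, 64.4% of it, in capitals.
Cox6a2, chromosome 7, - strand, from 128206295: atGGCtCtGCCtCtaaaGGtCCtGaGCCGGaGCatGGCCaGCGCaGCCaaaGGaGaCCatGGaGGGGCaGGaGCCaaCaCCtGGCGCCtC

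Ndufs7 was at 27.9 and 31.6 CPM in HET IL-6 against 27.5 and 31.4 CPM in HET control, and at 17.2 and 15.1 CPM in WT IL-6 against 25.1 and 23.1 CPM in WT control. The HET libraries did not separate by treatment, and both WT IL-6 libraries were below both WT control libraries. The difference of 0.59 ± 0.16 passed (edgeR adjusted p = 0.0337), but it was 0.35 with the offsets (edgeR adjusted p = 0.136) and lost its call without 5 of the 8 libraries, with an edgeR adjusted p of up to 0.189 (without HET IL-6 number 2). The count of 3 rose without WT control number 2 and fell without either HET IL-6 library or HET control number 1, as did the count over all tested genes.

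**Figure D5:**
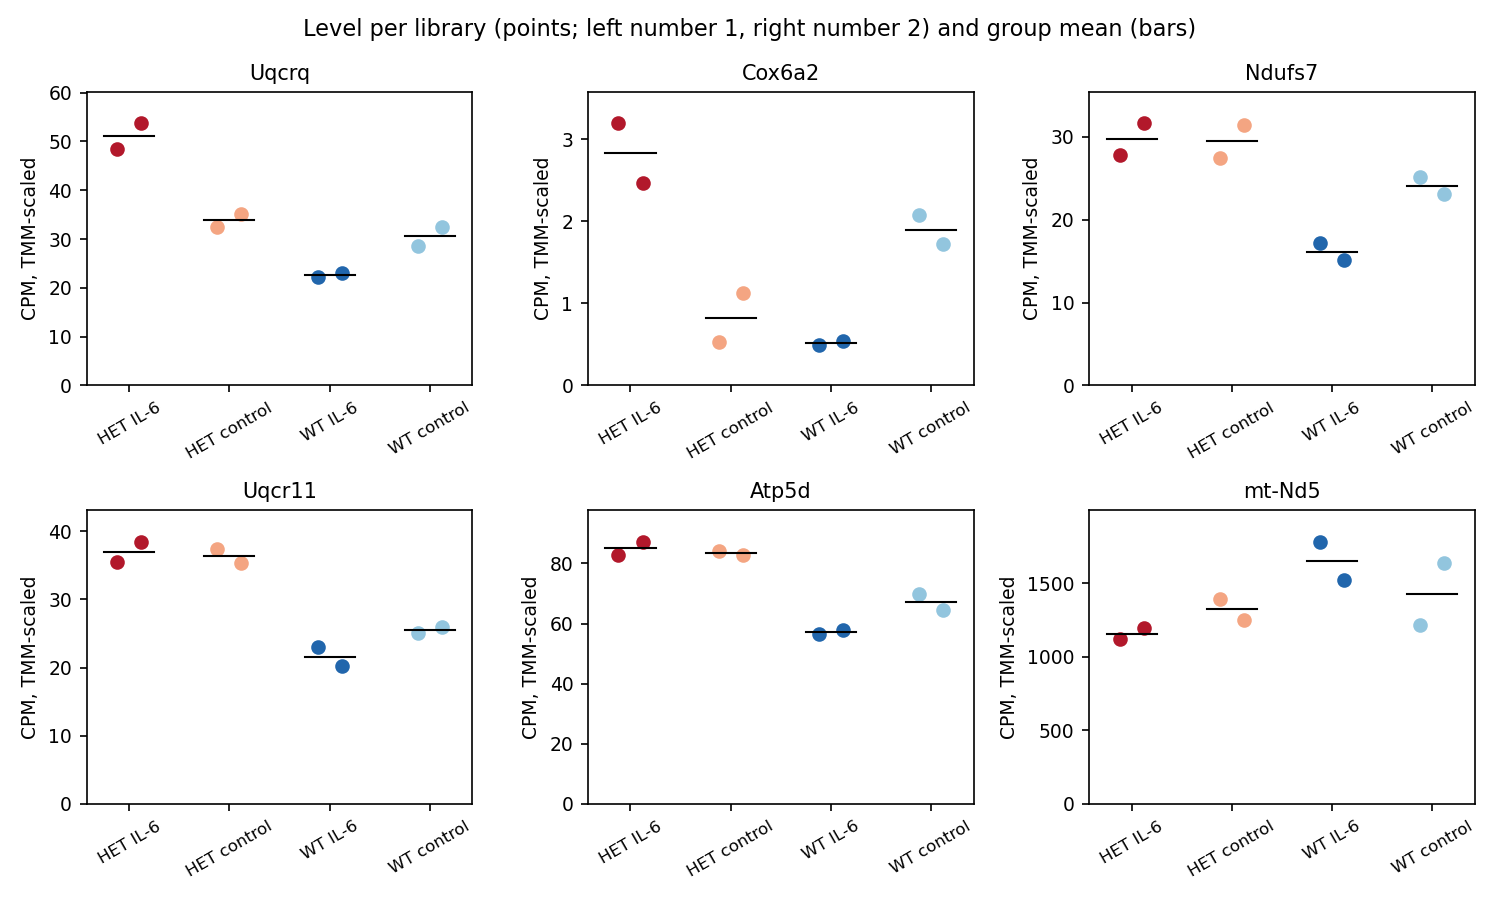
TMM-scaled CPM per library (points; left number 1, right number 2) and group mean (bars) for 6 genes. Uqcrq is highest in HET IL-6 at 48.5 and 53.7 CPM and lowest in WT IL-6, Cox6a2 is highest in HET IL-6 at 3.19 and 2.47 CPM, and mt-Nd5 is lowest in HET IL-6 at 1117 and 1193 CPM.

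Other tissue-restricted isoforms were scarce. The lung isoform gene Cox4i2 averaged 0.566 CPM per kilobase beside 144 for Cox4i1, and its groups did not pass in any comparison. The heart isoform gene Cox7a1 averaged 5.47 CPM per kilobase and lay at 0.07 ± 0.25 after IL-6 in HET over WT. Ndufa4l2, a paralog of Ndufa4 known to be induced by hypoxia, had 10 counts in all and was not tested.

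Start regions of the nuclear genes were searched for motifs of factors known for respiratory genes, on both strands, in RefSeq windows (GRCm38.p6) of 250 bases before to 50 after the start. Of the 92 nuclear genes 75 matched, with 80 windows, while Uqcrq and Cox6a2 had no window and were not searched. The windows of all genes set beside them were not matched in GC content or expression level. The NRF1 motif (GCGCA, any base, GCGC) stood in 25% of these windows and 4.59% of all 32817 windows, and the ETS motif CCGGAAG, bound by GABPA, in 23.8% and 8.86%. The YY1 motif AAGATGGC stood in 13.8% and 2.74%, and the motif TCAAGGTCA of the estrogen-related receptors in 2.50% and 0.424%. The window of Uqcr10, higher in HET after IL-6 with and without the offsets, holds none of the 4 motifs. The windows searched for Atp5d, Cycs and Esrra hold none either. Only windows with a match are shown, and each of them holds 1 of the 4 motifs, so none overlaps another there. They belong to 3 genes that were also higher in HET after IL-6 with and without the offsets, with the match in capitals.
Ndufs7, chr10:80249199-80249498, + strand: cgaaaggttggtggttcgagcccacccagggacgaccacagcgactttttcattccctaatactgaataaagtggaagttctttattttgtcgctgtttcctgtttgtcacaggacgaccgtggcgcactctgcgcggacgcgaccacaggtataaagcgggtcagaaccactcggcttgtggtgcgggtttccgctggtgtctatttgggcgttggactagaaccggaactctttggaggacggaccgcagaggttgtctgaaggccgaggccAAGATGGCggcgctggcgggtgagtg
Uqcr11, chr10:80406772-80407071, - strand: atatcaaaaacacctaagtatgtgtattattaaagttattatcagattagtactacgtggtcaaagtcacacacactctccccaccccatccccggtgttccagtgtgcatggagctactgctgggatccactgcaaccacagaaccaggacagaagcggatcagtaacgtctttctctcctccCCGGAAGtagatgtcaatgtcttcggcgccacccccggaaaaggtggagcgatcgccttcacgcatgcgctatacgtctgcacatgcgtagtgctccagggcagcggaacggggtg
Ndufb7, chr8:83566508-83566807, + strand: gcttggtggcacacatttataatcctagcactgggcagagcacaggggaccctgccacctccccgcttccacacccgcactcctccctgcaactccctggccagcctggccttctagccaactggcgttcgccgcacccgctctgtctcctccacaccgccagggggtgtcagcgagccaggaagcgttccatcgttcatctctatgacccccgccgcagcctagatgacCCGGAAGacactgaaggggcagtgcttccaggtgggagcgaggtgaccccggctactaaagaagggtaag
The capitals mark the YY1 motif in Ndufs7, just past the start, and the ETS motif in Uqcr11 and Ndufb7.

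Regulators and partners outside the set were read from lists. Of 13 tested regulators 3 were higher and 0 lower in HET over WT after IL-6: Esrra (0.78 ± 0.10, edgeR adjusted p = 2.19e-04), Myc (0.49 ± 0.09) and Ppard (0.43 ± 0.09). This is 23.1% of the list, near the 22.0% of all tested genes, and with the offsets the list again gave 3 higher and 0 lower, with Myc at 0.33 and Ppard at 0.36. Esrra encodes the estrogen-related receptor alpha, a known activator of respiratory genes. It was at 31.1 and 33.7 CPM in HET IL-6 against 26.1 and 25.8 CPM in HET control, and at 18.2 and 19.7 CPM in WT IL-6 against 23.7 and 21.9 CPM in WT control. Like Uqcrq it was highest in HET IL-6 and lowest in WT IL-6, with a response difference of 0.60 ± 0.14 (edgeR adjusted p = 0.0177) and 0.59 with the offsets. Nrf1 and Gabpa did not pass after IL-6 (0.12 ± 0.10 and -0.24 ± 0.10), nor did Tfam, which packages mitochondrial DNA (-0.16 ± 0.10). Ppargc1a was at 0 to 0.164 CPM. Polrmt, the mitochondrial RNA polymerase gene, was at 21.4 and 20.8 CPM in HET IL-6 against 12.7 and 11.6 CPM in WT IL-6 (0.79 ± 0.11, edgeR adjusted p = 5.05e-04), the opposite direction to the mitochondrial transcripts, and was at 0.34 with the offsets (edgeR adjusted p = 0.0508).

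Of 45 assembly factors outside the set 8 were higher and 1 lower in HET over WT after IL-6, or 20% of the list beside 22.0% of all tested genes, and 4 were higher and 0 lower with the offsets. Cox14, a complex IV assembly factor, was higher by 0.72 ± 0.11 (edgeR adjusted p = 7.56e-04) and by 0.48 with the offsets, and its IL-6 response differed by 0.61 ± 0.16 (edgeR adjusted p = 0.0283). Of 20 genes of the citric acid cycle and pyruvate dehydrogenase, which supply the chain with electrons, 0 were higher and 2 lower in HET over WT after IL-6, or 10% of the list, and 0 were higher and 1 lower with the offsets. Idh3a was at -0.30 ± 0.09, and at -0.23 with the offsets. Of 20 genes of mitochondrial RNA processing, Hsd17b10, a subunit of mitochondrial RNase P, rose with IL-6 in HET (0.74 ± 0.08, edgeR adjusted p = 2.77e-05) and in WT (0.39 ± 0.09, edgeR adjusted p = 0.00519). Among 13 carriers and uncoupling genes the citrate carrier gene Slc25a1 had a response difference of 1.02 ± 0.15 (edgeR adjusted p = 0.00117), and was 0.78 with the offsets. Of 13 genes of ubiquinone synthesis, which makes the electron carrier between complexes, 1 was higher and 1 lower in HET over WT after IL-6 (15.4%), and the counts were the same with the offsets. Of 22 genes of mitochondrial DNA replication and transcription 3 were higher and 2 lower (22.7%, near the background), and 1 was higher and 1 lower with the offsets.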

How the data were processed

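Poly(A) RNA of 8 macrophage libraries was sequenced from a stranded kit, per the labels' protocols. The authors deposited raw read counts per gene. Tools listed in the submitters' processing notes are featureCounts 1.6.2, SAMtools 1.9, STAR 2.7.9a and fastp 0.12.4, with mm10 as the build. Not given in the sources used here are the annotation release and the settings for strand and multiple matches. Without a stated strand setting, genes that overlap another gene's exons are uncertain.

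The counts were fitted with edgeR 4.0.16 (R 4.3.3) after filterByExpr at a minimum count of 10 and TMM scaling, with 1 mean for each of 4 groups, robust quasi-likelihood and 4 residual degrees of freedom. Tests were 2-sided, adjusted by the Benjamini-Hochberg method over 13721 genes and called under 0.05. After ±, fold changes carry their standard error and other means their SD. Comparisons, 5 in all, set IL-6 against control in HET and in WT, HET against WT after IL-6 and in control, and the difference of the IL-6 responses. Length and GC offsets were natural splines with 5 degrees of freedom, of the deposited exon length and of the GC content of the longest GENCODE M21 transcript. They were fitted for each library over the tested genes. Libraries of a group differed beyond sampling noise, with a mean chi-square per gene of 6.39 to 18.4, and none was counted as a repeat. A count of 3 corresponds to 0.0598 to 0.159 CPM, and this covers counting error only.

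Named with values were every mitochondrially encoded member, up to 8 called members in each direction of a comparison reaching 5 CPM in a group mean, a fixed set of subunit and isoform genes, listed regulators, and up to 4 genes of each list with the smallest p. The members and lists were chosen with earlier results of these data known. Alternatives were DESeq2 1.42.0, total counts, TMM without mitochondrial genes, no filter, the offsets, replicate blocks and leaving out each library.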

Additional observations from a re-analysis of the deposited data

Results flagged for a closer look

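The IL-6 response differed between HET and WT by the test of the difference itself for 3 genes of oxidative phosphorylation. For Cox6a2 the response in HET minus that in WT was 3.62 on the log2 scale, for Uqcrq it was 1.03 and for Ndufs7 0.59. Of the 3, Ndufs7 lost its call with the length and GC offsets and without 5 of the 8 libraries.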

How the results depend on the processing

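Counts of called members moved by over 1.5 times in several settings, whose causes were not tested beyond what the offsets show. With length and GC offsets the calls were 6 for IL-6 in HET, 15 for IL-6 in WT and 18 for HET against WT after IL-6. They were 1 in control and 7 for the difference of responses. Over all tested genes the same fit called 3457, 3163, 1591, 679 and 1710, in this order. Cox4i1 reversed to -0.063 for HET against WT after IL-6. In control DESeq2 gave 4 and no filter 5, where 832 and 1078 of all genes were called. Leaving out a library also moved the calls over all tested genes. At the lowest and highest member counts given next, both moved in the same direction. Without WT IL-6 number 1 and WT control number 2 together, calls over all tested genes rose for IL-6 in HET and for the difference. For IL-6 in WT they fell. Each of these settings leaves 1 library in a group, so its member counts do not show a change of these genes alone. Without each library in turn the counts ran from 2 to 4 for IL-6 in HET, from 4 (without WT IL-6 number 1) to 21 (without WT control number 2) in WT, from 12 (without HET IL-6 number 2) to 44 (without WT control number 1) for HET against WT after IL-6, from 0 (without HET control number 1) to 16 (without WT control number 1) in control and from 2 to 12 (without WT control number 2) for the difference. Same-numbered libraries correlated in their deviations at 0.15 in HET and -0.11 in WT, and the labels do not say that a number marks a shared mouse. With the replicate block within genotype the count for IL-6 in WT was 3, where 1793 of all genes were called. With the replicate block across groups it was 21 for HET against WT after IL-6 and 1 in control, where 2288 and 339 were called. With the WT pairing crossed, chosen after seeing the data, the counts were 14 for IL-6 in HET, 32 in WT and 22 for the difference. Over all genes the counts in that fit were 4435, 4443 and 3121. Without WT IL-6 number 1 and WT control number 2 together, also chosen after seeing the data, they were 12 for IL-6 in HET, 15 in WT and 10 for the difference. The mean log2 ratio of mitochondrial to nuclear counts was -0.42 in HET IL-6, -0.31 in HET control, 0.042 in WT IL-6 and -0.105 in WT control without mt-Co1, and -0.582 in HET IL-6, -0.46 in HET control, -0.117 in WT IL-6 and -0.251 in WT control without genes that share sequence with nuclear copies. Over the values of named members, leaving out a library kept 1211 on their side of the threshold, ended 95 calls and added 30, and the other settings kept 1147, ended 48, added 60 and reversed 1. Low counts limit Cox6a2, Cox4i2, mt-Co3 and mt-Nd3.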
